A study of Mus musculus with 2 samples.

Results

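T-box transcription factor genes were followed in mouse ureter explants exposed to the GSK3 inhibitor BIO. The 8 genes Tbx1, Tbx2, Tbx3, Tbx4, Tbx5, Tbx15, Tbx18 and Tbx20 were taken by the gene name that both scanner tables give to a biological probe. They were covered by 10 probes (3 for Tbx20, 1 for each of the others) among 39429 probes and 29875 genes by name on the array, and 7 of the 8 genes gave enough signal to be tested. The gene with no testable signal was Tbx15.

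All RNA came from ureters of wildtype NMRI embryos, an outbred mouse strain, dissected at E12.5 and held for 18 h on transwell membranes. The BIO group received 10 µM BIO and the control group its solvent DMSO, 2 parts to 1000 parts of medium, and according to the methods each sample was a pool of ureters cultured without serum. The sex of the embryos was not determined. There were 2 arrays, each hybridized with a control and a BIO sample, and the dyes were exchanged between them (BIO in red, AlexaFluor647, in replicate 1 and in green, AlexaFluor555, in replicate 2). The p-values and standard errors rest on 2 pairs of samples and on a spread that limma drew from all probes tested (7.14 prior degrees of freedom).

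T-box factors bind DNA through a shared domain, and several of them act as repressors of transcription. Tbx18 marks the mesenchymal progenitors around the early ureteric epithelium and is needed for these cells to condense around it, while the closely related repressors Tbx2 and Tbx3 act in the inner ureteric mesenchyme, where their expression is known to depend on canonical WNT signaling. BIO keeps GSK3 from marking beta-catenin for degradation and is used to activate this pathway. The question was therefore how the T-box genes respond when the pathway is activated for a short time in the whole organ.

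Tbx2, Tbx3 and Tbx18, the T-box genes best known in the ureteric mesenchyme, gave small ratios that were not called, Tbx3 by a narrow margin. The genes called were other family members. Tbx2 differed by 1.01-fold, with opposite signs on the arrays, Tbx3 was 1.27-fold higher and Tbx18 1.16-fold lower with BIO. Tbx5 rose by 1.34-fold, whereas Tbx1 and Tbx20 fell by 1.90-fold and 2.01-fold. Of the 7 genes tested, 1 rose, 2 fell and 4 were not called (limma on the 2 ratios against 0, adjusted p below 0.05 over all 28824 probes tested). Over all 21574 genes tested, 9.13% rose, 14.8% fell and 23.9% changed in either direction by the same criterion. The median log2 ratio of the 7 genes was 0.010, beside -0.0083 over all genes tested. At an unadjusted p below 0.05 (limma), 2 of the 7 were higher and 2 lower, beside 3274 and 4645 of all 21574 genes tested.

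The 2 direct WNT response genes that served as a check of the treatment rose strongly. Axin2, which encodes a feedback inhibitor of the pathway, had a log2 ratio of 2.15 ± 0.12 (SE, n = 2), and Sp5, a transcription factor gene induced by WNT signals, one of 2.80 ± 0.12. With the deposited scores 1 of these 2 genes was called risen. In which tissue they rose was not tested, so the check does not show a response in the mesenchyme. In longer cultures with LiCl, another GSK3 inhibitor, the study saw ectopic Axin2 in the epithelium. Axin2 in the mesenchyme looked largely the same there. The labeled tissue was checked against 10 mesenchyme and 12 ureteric epithelium markers, all of which were detected well enough to be tested.

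**Figure D1:**
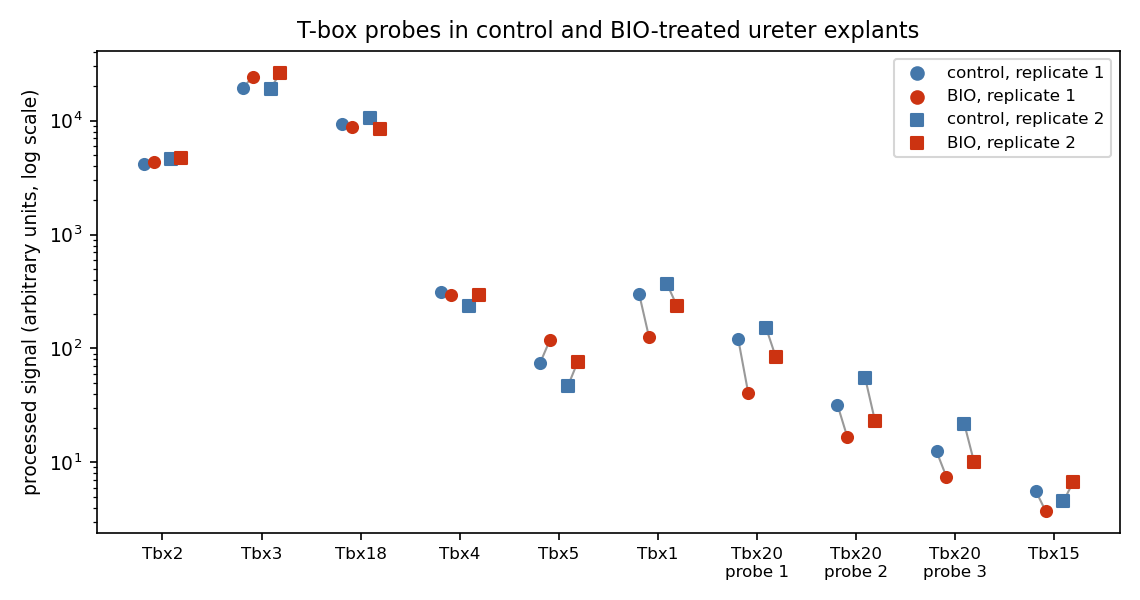
Processed signal (arbitrary units, log scale) of each T-box probe in the control and BIO channel of both arrays, with a line joining the channels of 1 array. Tbx2, Tbx3 and Tbx18 lay between 4189 and 26423, the 3 Tbx20 probes were lower with BIO on both arrays, and Tbx15 stayed below 7. Heights of different probes are not comparable as levels.

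Tbx2 encodes a repressor that restrains cell cycle inhibitors in many embryonic tissues. Its probe (NM_009324, chromosome 11, 85655391 to 85655450, plus strand, mm9) gave a processed signal of 4189 (control) and 4333 (BIO) on the array of replicate 1 and 4626 and 4705 on that of replicate 2. The groups did not separate beyond the spread of the spots, since in both arrays the 4 control spots and the 4 BIO spots overlapped. After loess the log2 ratio was 0.05 and -0.03, with a mean of 0.010 ± 0.11 (SE, n = 2), an adjusted p of 0.961 (limma) and a 95% interval from -0.24 to 0.26. Only 3.26% of all genes tested had a smaller size of change.

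Tbx3 is the close relative of Tbx2 and shares much of its expression in the ureter. The Tbx3 probe (NM_198052, chromosome 5, 120134511 to 120134570, plus strand) gave 19418 in control and 24226 with BIO in replicate 1. In replicate 2 the signals were 19165 and 26423. Both BIO samples were above both control samples, and on neither array did the spots of the channels overlap, with control spots from 18843 to 19738 and BIO spots from 24094 to 24403 in replicate 1. The log2 ratio was 0.26 and 0.43, with a mean of 0.34 ± 0.11 (SE) and an adjusted p of 0.0599 (limma), so Tbx3 was not called. The 95% interval ran from 0.09 to 0.60, and 89.5% of the genes tested had a lower ratio. With 1 averaged ratio per gene, which lowers the number of features tested, the same log2 ratio had an adjusted p of 0.0449, and over all alternatives the adjusted p ranged from 0.0449 to 0.229.

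Tbx18 encodes the T-box factor that is required for specification of the ureteric mesenchyme and that holds it apart from the metanephric mesenchyme. Its probe (NM_023814, chromosome 9, 87599514 to 87599573, minus strand) read 9371 (control) and 8756 (BIO) on the array of replicate 1 and 10572 and 8537 on that of replicate 2, where 3 spots remained after the outliers were left out. Both BIO samples lay below both control samples, by a small margin. The log2 ratios of -0.15 and -0.29 had a mean of -0.22 ± 0.11 (SE), with an adjusted p of 0.197 (limma) and a 95% interval from -0.47 to 0.04. A fall by more than 0.47 on the log2 scale is thus outside the interval.

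**Figure D2:**
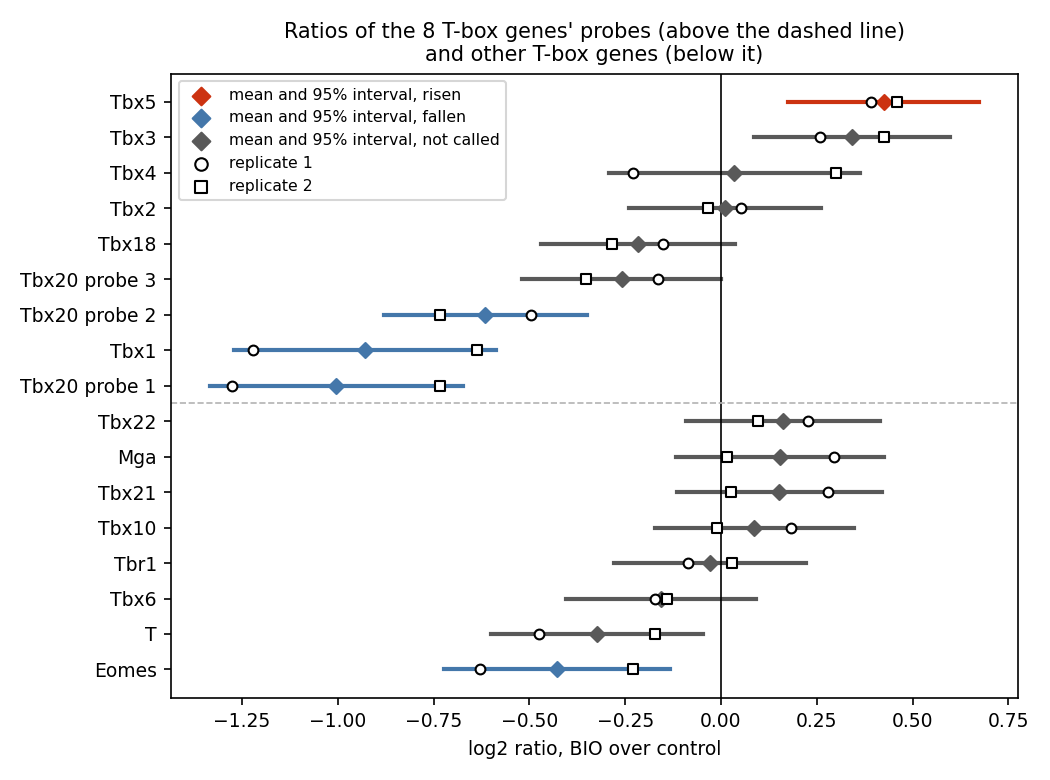
Log2 ratio of BIO over control for each tested probe of the 8 genes (above the dashed line) and the brightest probe of the other T-box genes (below it), as the 2 arrays (open symbols) and the mean with its 95% interval from limma. Tbx5 is the single gene called risen, and Tbx1, 2 of 3 Tbx20 probes and Eomes are called fallen.

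Tbx4 and Tbx5 form a related pair that is best known for limb and lung mesenchyme. In the genome Tbx4 lies beside Tbx2 and Tbx5 beside Tbx3, with 0 protein-coding genes between them in RefSeq, and their probes were 74.1 kb and 199.6 kb apart (mm9). The Tbx5 probe (NM_011537, chromosome 5, 120334087 to 120334146, plus strand) was dim, with signals of 74.5 (control) and 119 (BIO) in replicate 1 and of 46.7 and 76.2 in replicate 2. On each array BIO was above control without overlap of the spots, although the control sample of replicate 1 was close to the BIO sample of replicate 2. The log2 ratio was 0.39 and 0.46, with a mean of 0.42 ± 0.11 (SE) and an adjusted p of 0.0250 (limma). Over the alternatives the adjusted p ranged from 0.0173 to 0.463, and the call was lost with median centering in place of loess, where the log2 ratio was 0.31. The log2 ratio was 0.50 with an offset of 16 in the background correction and 0.69 with the processed signals, which have no offset.

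The Tbx4 probe (NM_011536, chromosome 11, 85729510 to 85729569, plus strand) gave the arrays in opposite directions. Its signal was 311 (control) and 293 (BIO) on the array of replicate 1 and 235 and 297 on that of replicate 2. The green channel was thus the brighter one on both arrays. The log2 ratios of -0.23 and 0.30 differed by 0.53, and their mean of 0.04 ± 0.14 (SE) had an adjusted p of 0.892 (limma) with a 95% interval from -0.29 to 0.36. After loess the genome neighbors Tbx3 and Tbx5 had gaps of -0.13 and -0.03 on the 2 arrays (Tbx3 minus Tbx5, log2). The gap of Tbx2 minus Tbx4 was 0.28 and -0.33, although the mean log2 ratios of these genes were 0.010 and 0.04. The means of Tbx3 and Tbx5 were 0.34 and 0.42. With the processed signals, which have no offset, Tbx3 had log2 ratios of 0.32 and 0.46 in replicates 1 and 2. Those of the dim Tbx5 were 0.67 and 0.71, above Tbx3 on both arrays. Tbx2 then had 0.05 and 0.02, and Tbx4 -0.09 and 0.34.

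Tbx1, known for its role in pharyngeal and head mesoderm, was lower with BIO. The Tbx1 probe (NM_001285472, chromosome 16, 18581807 to 18581866, minus strand) read 299 (control) and 125 (BIO) on the array of replicate 1 and 369 and 237 on that of replicate 2. The groups did not overlap, and all 4 spots of each array had a ratio below 0. Its log2 ratio was -1.22 and -0.64, with a mean of -0.93 ± 0.15 (SE) and an adjusted p of 0.00331 (limma), and 95.6% of all genes tested had a smaller size of change. The arrays differed by 0.59, a wide gap beside the spot SDs of 0.10 and 0.18. The call was lost with the processed signals (adjusted p = 0.0761) and with the deposited scores (adjusted p = 0.276), where the log2 ratio was -0.95 and -0.92, and over all alternatives the adjusted p ranged from 2.94e-05 to 0.276.

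Tbx20, which is needed in the developing heart, was covered by 3 probes on chromosome 9 (minus strand) for 3 transcript records. The brightest (NM_194263, 24527750 to 24527809) read 120 (control) and 40.7 (BIO) on the array of replicate 1 and 152 and 83.3 on that of replicate 2. Here also the BIO samples lay below the control samples on both arrays. The log2 ratio of -1.27 and -0.73 gave a mean of -1.0 ± 0.14 (SE) and an adjusted p of 0.00192 (limma). With the processed signals the log2 ratio was -1.21 and with the deposited scores -1.22, and the adjusted p was then 0.0632 and 0.229, in a range from 1.26e-05 to 0.229 over all alternatives.

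The further Tbx20 probes were dimmer and pointed the same way. The probe of NM_001205085 (24563177 to 24563236) fell from 32.1 to 16.7 in replicate 1 and from 55.1 to 23.0 in replicate 2, with a log2 ratio of -0.61 ± 0.12 (SE) and an adjusted p of 0.00679 (limma). The probe of NM_020496 (24544715 to 24544774) read 12.46 and 7.46 in replicate 1 and 21.8 and 9.98 in replicate 2, and its log2 ratio of -0.26 ± 0.11 was not called (adjusted p = 0.138, limma). In the BIO channel of replicate 1 these dim probes were well above background on 1 of 4 spots and on 0 of 4 spots. On that array 70.1% of all biological spots were well above background in BIO (red) and 80.9% in control (green). All 3 Tbx20 probes had a log2 ratio below 0 on both arrays, and their averaged ratio was -0.63.

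Tbx15, a relative of Tbx18 known from skeletal and skin mesenchyme, was not well above background. Its probe (NM_009323, chromosome 3, 99157901 to 99157960, plus strand) read 5.64 (control) and 3.74 (BIO) on the array of replicate 1 and 4.53 and 6.73 on that of replicate 2. It stood out on 3 of 4 control spots in replicate 1 and on 0 spots of the other samples, so no ratio was tested and no fold is given. Signals from whole explants do not place any of the 8 genes in the ureteric mesenchyme or in another tissue. In these bulk samples fewer cells of a type and less RNA per cell cannot be told apart.

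**Figure D3:**
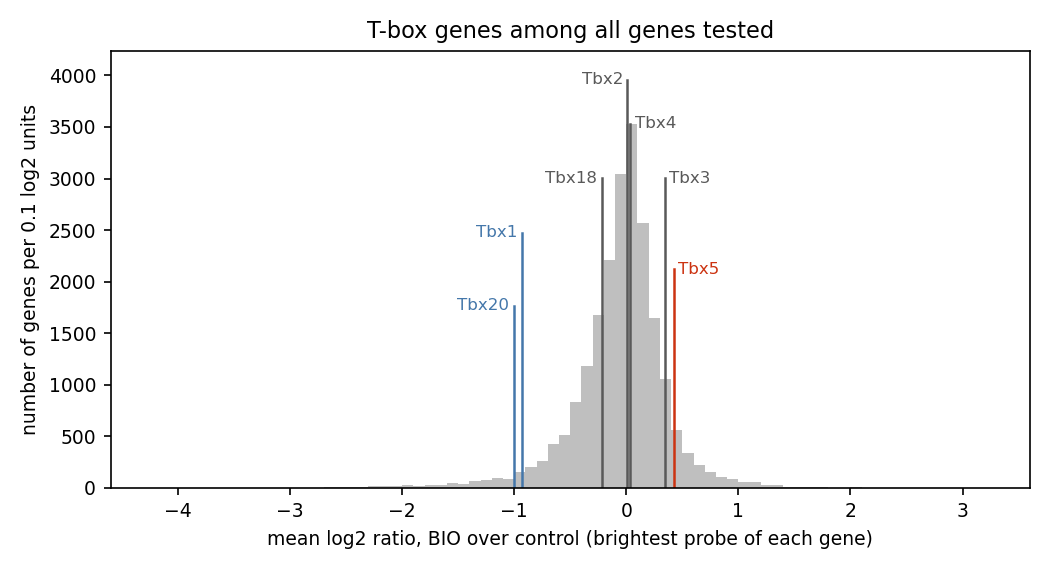
Number of genes per bin of 0.1 log2 units against the mean log2 ratio of BIO over control, for the brightest probe of each of 21574 genes, with the 7 tested T-box genes marked at their ratio (red risen, blue fallen, grey not called; line heights carry no value). Tbx2 and Tbx4 lie at the peak, and Tbx1 and Tbx20 in the left tail, where 3.17% and 2.69% of genes had a lower ratio.

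A rule on size, which asks of each array a ratio of 2-fold or more toward the same side and a brighter channel of 100 or more, was applied to the processed signals centered on each array's median. It was met by 0 of the 6 T-box genes that were bright enough, beside 4.08% of all genes that were. Tbx1 and Tbx20 came closest. Their centered log2 ratios were -1.26 and -1.56 in replicate 1, beyond 2-fold, and -0.64 and -0.86 in replicate 2, short of it. With a minimum of 1.5-fold these 2 genes met the rule. The share of all genes at that minimum was not counted, and the 4.08% applies to 2-fold only.

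The regulatory sequence before the start of the genes that fell and of Tbx18 was searched for the letters of known binding motifs. RefSeq windows (GRCm38.p6) were at hand for 4 of the 8 genes, Tbx1, Tbx4, Tbx18 and Tbx20. The 250 bases before the start were read on both strands for the TCF/LEF core letters CTTTGA and CTTTGT, which overlap each other in CTTTG, and for the T-box core AGGTGT. Any match is printed in capitals, and all other bases are in lower case, 5′ to 3′ on the strand of the gene.
Tbx1, upstream start, chr16:18590672-18590921, minus strand: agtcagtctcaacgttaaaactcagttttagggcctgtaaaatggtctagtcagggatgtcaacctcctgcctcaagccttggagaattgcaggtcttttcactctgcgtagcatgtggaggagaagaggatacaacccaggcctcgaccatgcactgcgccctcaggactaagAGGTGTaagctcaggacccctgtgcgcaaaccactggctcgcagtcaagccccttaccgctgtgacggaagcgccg
Tbx20, chr9:24774304-24774553, minus strand: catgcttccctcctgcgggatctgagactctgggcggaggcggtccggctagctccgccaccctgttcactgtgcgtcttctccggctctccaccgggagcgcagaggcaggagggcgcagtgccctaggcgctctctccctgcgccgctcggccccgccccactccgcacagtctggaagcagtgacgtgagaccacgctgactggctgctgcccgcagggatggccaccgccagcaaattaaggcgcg
Tbx18, chr9:87731261-87731510, minus strand: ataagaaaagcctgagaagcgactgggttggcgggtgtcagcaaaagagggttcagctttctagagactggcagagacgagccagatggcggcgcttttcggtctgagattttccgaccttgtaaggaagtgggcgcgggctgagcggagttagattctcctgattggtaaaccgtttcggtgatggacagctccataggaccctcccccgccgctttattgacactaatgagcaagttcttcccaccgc

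The capitals mark the single match in these windows, an AGGTGT that begins 76 bases before the upstream start of Tbx1. Neither TCF/LEF core was found in the 5 windows of the 4 genes, while 27.6% of all 32851 RefSeq windows of that length held at least 1 of them, and 11.8% held AGGTGT. A match or its absence describes letters in this window only. The windows of Tbx1 and Tbx20 printed above had a GC content of 54.4% and 68.8%, that of Tbx18 54.0%, and the median of all windows was 52.4%.

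Of 9 other T-box genes on the array 8 were tested, 0 rose and 1 fell (limma), beside 9.13% and 14.8% of all genes tested. At an unadjusted p below 0.05 (limma) the counts were 0 and 2, beside 3274 and 4645 of all 21574 genes tested. Eomes, a regulator of early mesoderm and endoderm, fell by 0.43 ± 0.13 on the log2 scale (SE, adjusted p = 0.0451), with signals of 29.2 (control) and 11.2 (BIO) on the first array and 39.9 and 30.4 on the second. The BIO sample of replicate 2 lay above the control sample of replicate 1, so the samples overlapped across arrays, and its call was lost with the processed signals, median centering, all probes tested and the deposited scores (adjusted p from 0.0705 to 0.252). Another Eomes probe for the same transcript record was not tested. Its signals lay between 1.65 and 2.84, with 0 spots well above background in either channel of either array. T, the Brachyury gene and a known WNT target in the primitive streak, read 23.9 and 11.1 in replicate 1 and 24.9 and 18.8 in replicate 2. Its log2 ratio of -0.32 ± 0.12 was not called (adjusted p = 0.0898, limma). For T and the tested Eomes probe the BIO channel was well above background in replicate 2 and on 0 spots of replicate 1. Over all biological spots, BIO was well above background on 70.1% in replicate 1 (red) and 78.1% in replicate 2 (green). Control was so on 80.9% and 73.7%.

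The remaining relatives gave ratios near 0. Mga, which encodes a large T-box protein that pairs with MAX, was the brightest of them, with 2680 (control) and 3299 (BIO) on the first array and 2850 and 2965 on the second. Its log2 ratio of 0.15 ± 0.12 was not called (adjusted p = 0.400, limma). The log2 ratios of Tbx22, Tbx21, Tbx10, Tbr1 and Tbx6 lay between -0.16 and 0.16 and were not called, and Tbx19 was not tested, since its signals stayed between 2.72 and 5.02. With the processed signals, which have no offset, the dim Tbx21, Tbx22 and Tbx10 had log2 ratios of 0.69, 0.49 and 0.45 in replicate 1. In replicate 2 theirs were 0.17, 0.15 and 0.03. Tbr1 and Tbx6 lay between -0.10 and 0.09 on both arrays. The median of the 8 genes tested was 0.03.

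Genes described in other tissues as repressed by TBX2 or TBX3 moved in both directions. Of 10 such genes 9 were tested, of which 1 rose and 4 fell, beside 9.13% and 14.8% of all genes tested, with a median log2 ratio of -0.21. Cdkn1a, the gene of the cell cycle inhibitor p21, rose by 0.99 ± 0.14 (SE, adjusted p = 0.00170, limma). Its signal went from 560 to 1427 in replicate 1 and from 593 to 1023 in replicate 2, with no overlap between BIO and control, and its call was lost with the processed signals (adjusted p = 0.0602) and the deposited scores (adjusted p = 0.229). Gja5, a connexin gene also strongly expressed in arterial endothelium, fell by 2.36 ± 0.15 and Shisa3, which encodes a membrane protein that holds back WNT and FGF receptors inside the cell, by 1.88 ± 0.11. The epithelial cadherin gene Cdh1 fell by 1.04 ± 0.11, and the stress-response gene Ndrg1, named after its values were seen, by 1.02 ± 0.11. Gja1, Cdkn1b, Nppa and Frzb had log2 ratios between -0.21 and 0.12 and were not called. With the deposited scores Gja5, Shisa3 and Cdh1 were not called either. Cdh1 is also in the list of epithelial markers.

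Genes of the metanephric mesenchyme, the program that TBX18 is known to hold off, did not move together. Of 9 genes tested, 1 rose, 2 fell and 6 were not called, beside 9.13% and 14.8% of all genes that rose and fell, with a median log2 ratio of -0.06. Wt1, needed for the kidney mesenchyme to survive, rose by 0.58 ± 0.18 (SE, adjusted p = 0.0471, limma), with log2 ratios of 0.18 and 0.98 on the arrays. Its call was lost under 5 of 8 alternative treatments of both arrays, of which Aquantile could not change it by construction. Osr1, the early marker of the intermediate mesoderm, fell by 0.94 ± 0.12, and the stromal gene Foxd1 by 0.60 ± 0.12. Foxd1 was not called with the processed signals (adjusted p = 0.0688), and neither gene with the deposited scores.

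Among 9 further genes of the ureteric mesenchyme 1 rose and 3 fell, beside the same shares of all genes, with a median log2 ratio of -0.23. Tshz3, required for smooth muscle differentiation, rose by 0.55 ± 0.14 (SE, adjusted p = 0.0251, limma). The retinoic acid synthesis gene Aldh1a2 fell by 0.61 ± 0.11, the signal gene Bmp4 by 0.51 ± 0.11 and the transcription factor gene Gata6 by 0.39 ± 0.12. The ratios of Foxf1 and Sox9 were negative on 1 array and positive on the other, and neither gene was called. With the processed signals 0 of the 9 genes were called in either direction, and with median centering 0 fell. Gata6 was also not called with the offset of 16 (adjusted p = 0.0684) or with all probes tested (0.0544), Bmp4 and Aldh1a2 not with the deposited scores (0.101 and 0.1602), and Tshz3 not with all probes tested (0.0535) or the scores (0.393).

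**Figure D4:**
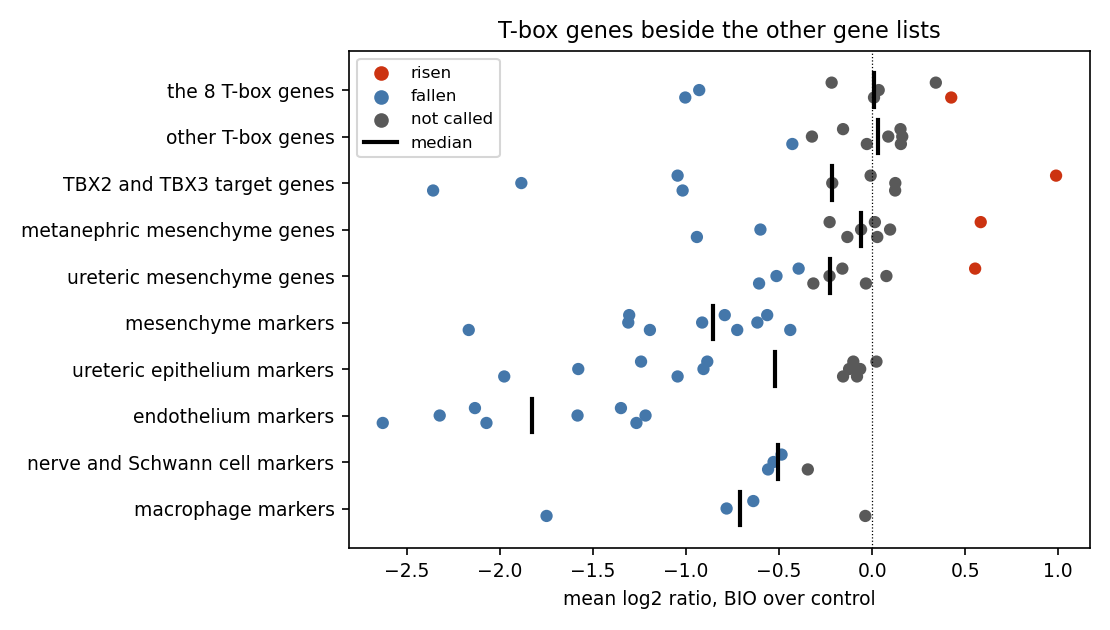
Mean log2 ratio of BIO over control for each tested gene (points, coloured by its call) in each gene list, with the median of the list as a black bar; Cdh1 appears in 2 lists. The T-box genes lie around 0 and reach from -1.0 to 0.42, and the mesenchyme and endothelium markers all lie below -0.43.

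Markers of the tissues in the explant moved with the treatment. All 10 mesenchyme markers fell, by log2 ratios from -2.17 to -0.44 with a median of -0.85, and their summed signal was 330439 and 364857 in control and 192207 and 215380 with BIO. Tbx2, Tbx3, Tbx4, Tbx5 and Tbx18 lay above this whole range, and Tbx1 and Tbx20 lay inside it. With median centering in place of loess 5 of the 10 markers were called fallen and their highest log2 ratio was -0.11, so that Tbx18 at -0.16 lay inside their range. All 8 endothelium markers fell, with a median of -1.83, and their summed signal was 26192 and 31559 in control and 5031 and 9348 with BIO. Of the 12 epithelium markers 6 fell, 0 rose and 6 were not called (median -0.52). Those not called (Epcam, Cldn3, Cldn4, Cldn7, Grhl2 and Gata3) had log2 ratios between -0.16 and 0.02. The summed signal of the 12 was 97610 and 99556 in control and 61380 and 71896 with BIO. Krt8 and Krt18, both called fallen, gave 28018 and 28778 of the control sum in replicate 1.

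Among nerve and Schwann cell markers 3 of 4 tested fell (median -0.51), with summed signals of 30518 and 33079 in control and 21249 and 29089 with BIO. Macrophage markers also fell in 3 of 4 (median -0.71), with 3310 and 3832 in control and 1824 and 2817 with BIO. No tested marker was without signal in control. At an unadjusted p below 0.05 no list of markers held a gene that rose (limma). The medians in replicates 1 and 2 were -2.02 and -1.44 for endothelium, -0.63 and -0.47 for epithelium, -0.55 and -0.45 for nerve, -0.77 and -0.65 for macrophage and -0.79 and -0.94 for mesenchyme markers. With the deposited scores, which called far fewer markers, 2 endothelium, 1 mesenchyme, 1 epithelium, 1 macrophage and 0 nerve and Schwann cell markers fell. With the processed signals 8 endothelium, 7 mesenchyme, 5 epithelium, 2 macrophage and 0 nerve and Schwann cell markers fell. The part of these marker changes in the ratios of the T-box genes was not tested.

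Many genes had ratios close to those of Tbx2, and fewer had ratios close to those of Tbx3 or Tbx18. The pair of log2 ratios of Tbx2 had 1650 other genes within a distance of 0.1 (7.65% of those tested), and the nearest were Slco6b1, Gm35287 and Prss37. For Tbx3 there were 482 genes (2.23%), with Fam110a, a transcript without a RefSeq name in the tables and Gm16062 the nearest. For Tbx18 there were 583 (2.70%), led by Thumpd3, Lexm and Prph. The distances of these 9 nearest genes were all below 0.01, over 2 arrays only.

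**Figure D5:**
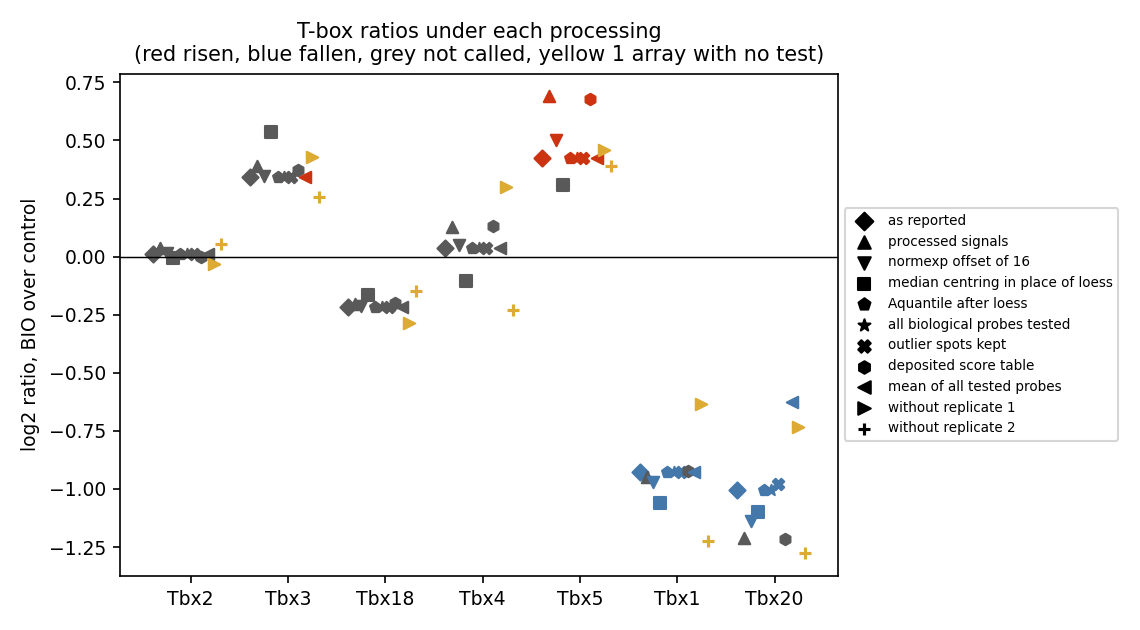
Log2 ratio of BIO over control of the 7 tested T-box genes under each processing (symbols), coloured by the call. Tbx1 and Tbx20 stay below -0.62 and Tbx3 and Tbx5 above 0.25 throughout, Tbx18 stays between -0.29 and -0.15, and Tbx2 and Tbx4 change sign between the single arrays and with median centering.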

How the data were processed

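Per the file headers, the authors scanned 2-color Agilent arrays (4 spots per biological probe) with Feature Extraction 10.7.3.1. The deposited tables hold raw mean and local background intensities, and processed signal intensities that the software had background-subtracted, detrended and dye-normalized. The authors also deposited a score per probe, whose making is not given in the sources used here. It behaved as a BIO to control fold change with a sign (Pearson r of 0.988 and 0.984 with the processed log2 ratios, across probes), its exact centering is unknown, and its median was 1 on both arrays.

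With limma 3.58.1 in R 4.3.3, intensities were corrected by normexp (offset 50) and log2 ratios normalized by loess, with control and outlier spots at weight 0. These spots were left out and the rest averaged per probe. A probe was tested when Feature Extraction had marked over a share of 0.5 of its spots as well above background on both arrays, either in control or in BIO. The swapped array was turned, and the 2 ratios were tested against 0 (lmFit, eBayes, two-sided, Benjamini-Hochberg over 28824 probes at 0.05). The number of arrays limits the precision (median SE 0.111, log2). A gene is its brightest tested probe. The fit was tested on simulated data. Those data had independent errors and no dye effect, so they do not show how the fit behaves with one. The size rule used processed signals with a floor of 15. The arrays shared 1 slide and 1 scan, so neither could act as a batch.

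Of 39429 probes, 28328 were named by accession, 3400 by symbol and 243 by synonym through RefSeq, and 7458 kept the name in the file. Probe coordinates are mm9. All probes of the 8 genes, all further T-box genes, up to 4 called genes of each other list, Axin2, Sp5 and the 3 genes nearest to Tbx2, Tbx3 and Tbx18 are named. Named beyond this rule are Ndrg1 and the uncalled genes of the target, ureteric mesenchyme and epithelium lists that the text gives. The genes and lists were chosen with earlier results of these data known. The alternatives were processed signals, another offset, median centering, Aquantile, no filter on dim probes, outliers kept, the deposited scores, the mean of all probes of a gene, other limits of the size rule and each array alone. One gene of the marker lists is not reported here.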

Additional observations from a re-analysis of the deposited data

How the results depend on the processing

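The reported test is itself paired, since each array holds a control and a BIO sample as 1 ratio and the 2 ratios were tested against 0, so no fit with a further replicate block could be made. A single array gives a ratio without a test. On one array alone the log2 ratio ranged from -1.22 to -0.64 for Tbx1, from -1.27 to -0.73 for Tbx20, from 0.26 to 0.43 for Tbx3, from 0.39 to 0.46 for Tbx5, from -0.29 to -0.15 for Tbx18, from -0.03 to 0.05 for Tbx2 and from -0.23 to 0.30 for Tbx4. With the processed signals the log2 ratios of Tbx1 and Tbx20, -0.95 and -1.21, were no longer called, nor were those of -0.92 and -1.22 with the deposited scores. Median centering took the call from Tbx5 (0.31), and the mean of all tested probes gave Tbx3 (0.34) a call. The T-box genes called risen were 0 with median centering and 2 with the mean of all probes, and those called fallen 0 with the processed signals and with the scores. Of the other T-box genes 0 fell with the processed signals, median centering or all probes tested, and 2 with the scores. Eomes, the gene called as reported, was not among these 2 (adjusted p = 0.190 with the scores, limma). Of the target genes of TBX2 and TBX3, 0 rose with the processed signals and 2 with all probes tested, and 1 fell with the scores. Metanephric genes risen were 0 with the processed signals, the offset of 16, median centering, all probes tested and the scores, and those fallen 1 with the processed signals and 0 with the scores. Ureteric mesenchyme genes risen were 0 with the processed signals, all probes tested and the scores, and those fallen 0 with the processed signals and with median centering. The size rule was met by 2 T-box genes at 1.5-fold, and by 0 to 2 on a single array, where the shares of all genes were not counted. Over all genes, 1970 rose and 3184 fell as reported, 797 and 1126 with the processed signals, 827 and 1939 with median centering, and 1929 and 1319 with the scores, where the share of rises among the changed genes was 59.4% in place of 38.2%. The causes of these shifts were not tested. Aquantile acts on the average intensities only, so by construction it left every log2 ratio as it was and is no check of the calls. Tbx1, Tbx5 and Tbx20 kept their direction under every alternative listed, while the log2 ratio of Tbx4 was -0.11 and that of Tbx2 -0.0062 with median centering. Signal over background limits Tbx5, Tbx15, Tbx20, T and Eomes.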
